A study of Mus musculus with 2 samples.

Results

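The genes described here are those of the TGF-β and BMP signalling pathways in the muscle layer (tunica muscularis) of the jejunum, compared between *Dnmt1*-WT and *Dnmt1*-KO mice. They were taken by symbol: the *Tgfb*, *Tgfbr*, *Bmp*, *Bmpr*, *Smad*, *Inhb*, *Acvr*, *Ltbp*, *Gdf* and *Grem* families, with *Nog*, *Chrd*, *Fst*, *Fstl1*, *Id1*, *Id2*, *Id3*, *Smurf1*, *Smurf2*, *Ski* and *Skil*. This gave 63 of the 18159 genes listed. Of these, 62 have a role in the pathway, and *Bmp2k*, a kinase induced by BMP2, matched by its name only. The study deleted *Dnmt1*, the methyltransferase that copies CpG methylation onto newly made DNA, in smooth muscle cells (SMC), and measured mRNA by sequencing with 1 library per genotype at 15 days of age. Values are FPKM, fragments scaled to transcript length and to the size of the library, so that levels of different genes can be set side by side per length.

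Mice were on the C57BL/6 background and carried a *Myh11*-driven *Cre* with *eGFP*, in the controls (*Dnmt1*-WT) as well as in the knockouts (*Dnmt1*-KO). The strain label, the same for both libraries, joins *Dnmt1* lox/lox to the transgene Tg(Myh11-cre,-EGFP)2Mik/J on B6.Cg. The description of both libraries names the knockout genotype, whereas the title and genotype label of one give *Dnmt1* WT, which was used here. *Cre* acts in SMC while the tissue also holds nerve, endothelial, connective tissue and immune cells, which are not SMC. Each genotype was sampled from mice of both sexes, and how their RNA was combined is not given in the sources used here. With a single library per genotype, replicate error is unknown for every difference below and no test was made.

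TGF-β is secreted as a latent complex with its propeptide and a latent TGF-β binding protein (LTBP), and must be released before it can signal. Ligands of both branches bring type I and type II receptor kinases together. The TGF-β and activin branch then phosphorylates SMAD2 and SMAD3, and the BMP branch SMAD1, SMAD5 and SMAD9, which enter the nucleus with SMAD4. In the gut wall, TGF-β is known for driving matrix production and SMC differentiation, while BMP signals and their antagonists in the muscle and mesenchyme pattern the layers and support the crypt base.

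The *Dnmt1*-WT and *Dnmt1*-KO libraries summed to 429698 and 460845 FPKM. *Dnmt1* itself was listed at 11.6 FPKM for *Dnmt1*-WT and 7.58 FPKM for *Dnmt1*-KO. All 7 SMC markers were detected, from 29.1 FPKM (*Myocd*) to 5408 FPKM (*Acta2*) in *Dnmt1*-WT, and all were lower in the *Dnmt1*-KO library, where their sum was 8838 FPKM against 12644. All 6 endothelial markers were higher (sum 46.3 against 106.5 FPKM, lowest ratio 1.77), as were all 7 leukocyte and macrophage markers listed (58.8 against 189.7 FPKM, lowest ratio 1.77). Of 6 fibroblast markers 4 were higher (2169 against 3516 FPKM). Of 4 adipocyte markers 3 were at least doubled (3.17 against 108.5 FPKM), beside 9.14% of all genes under the filter given below, with *Lep* at 0 in the *Dnmt1*-WT library. Of the 3 doubled, *Adipoq* (0.85 FPKM) and *Plin1* (0.33 FPKM) were under 1 FPKM in the *Dnmt1*-WT library and passed only through the *Dnmt1*-KO library. All 4 enterocyte markers were higher (65.9 against 128.9 FPKM). Interstitial cells of Cajal (2 markers lower, 83.9 against 74.5 FPKM), enteric neurons (3 of 4 higher, 313.7 against 373.1), enteric glia (3 of 4 higher, 59.2 against 88.9) and mesothelium (3 of 4 higher, 307.7 against 400.2) also had different sums, and of the glial markers *Gfap* was 7.40-fold higher, at 35.4 against 4.78 FPKM. Of the erythroid markers, *Hba-a1* was at 0 in both libraries and *Hbb-b1* went from 46.4 FPKM in *Dnmt1*-WT to 0 in *Dnmt1*-KO, while *Alas2* was 3.11-fold higher, at 2.95 against 0.95 FPKM. The erythroid list thus went from 47.4 to 2.95 FPKM in sum. Outside the list, the globin genes *Hbb-bs* (75.01 and 304.4 FPKM) and *Hba-a2* (42.3 and 224.7 FPKM) were higher. What part such cell types have in the results below was not tested.

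The pathway genes moved in both directions, with little net shift. The genes higher in the *Dnmt1*-KO library included *Tgfb1*, *Tgfb3*, *Bmp6*, *Gdf15*, follistatin (*Fst*), and the target genes *Id1* and *Id3*. Those lower included the BMP ligands *Bmp4* and *Bmp3*, the BMP type I receptors *Bmpr1a* and *Bmpr1b*, the type II receptors *Acvr2a* and *Bmpr2*, *Smad9*, *Gdf10*, *Ltbp2*, *Smurf2*, and the BMP antagonists *Grem1* and *Nog*. In bulk tissue such as this, fewer cells of a type and less RNA per cell cannot be told apart. The summed SMC markers were at 0.699 times their *Dnmt1*-WT level beside the genes that were lower, with single ratios from 0.427 to 0.893, and their part in those values was not tested.

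Ratios of *Dnmt1*-KO to *Dnmt1*-WT were read for the 53 pathway genes above 0 in both libraries and at 1 FPKM or more in at least 1. Of these, 28 were higher in the *Dnmt1*-KO library and 25 were lower (47.2%, beside 50.8% of all genes). Their log2 ratios had a median of 0.03 against -0.01 over all 13769 genes that passed the same filter. The ratio was 2 or more for 5 pathway genes, or 9.43%, beside a background of 9.14% of all genes. Of these 5, *Gdf15*, *Fst*, *Gdf6* and *Inhbb* passed the filter only through the *Dnmt1*-KO library, where they are high, and the count was 2 with a filter of 5 FPKM (background 6.08%) or with 1 added to each FPKM (background 5.69%). It was 0.5 or less for 4, or 7.55%, beside 3.67%, for 8 beside 4.70% with each library divided by its FPKM sum, and for 2 beside 2.02% with 1 added. Of these 4, *Bmpr1b* passed the filter only through the *Dnmt1*-WT library, where it is high. At the lower fold of 1.5, 7 pathway genes were higher (13.2%, background 16.4%) and 12 were lower (22.6%, background 11.3%). In FPKM as deposited, the shares on the higher side were thus close to or below those of all genes, and the shares on the lower side about double. Of the 32 pathway genes at 10 FPKM or more in either library, 1 was at least doubled (background 5.20%) and 1 at most halved (background 2.93%), 3 were at least 1.5-fold higher (9.38%, background 11.2%) and 8 at least 1.5-fold lower (25%, background 10.3%). The doubled gene, *Gdf15*, and the halved one, *Smad9*, reached 10 FPKM only in the library where each is high. At this level the lower side thus stood above the background at the lower fold, and a single gene was past a halving. Without a spread between replicates these shares are a description of the 2 libraries. The genes nearest to the limits were *Acvr2a* (ratio 0.452) just inside a halving and *Bmpr1a* (0.508), *Gdf10* (0.517), *Ltbp2* (0.517) and *Bmp4* (0.533) just outside it. At the lower fold, *Grem1* (0.641) was just past 1/1.5 and *Bmpr2* (0.689) just short of it. *Tgfb3* (1.492) and *Id1* (1.491) were just short of 1.5.

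**Figure D1:**
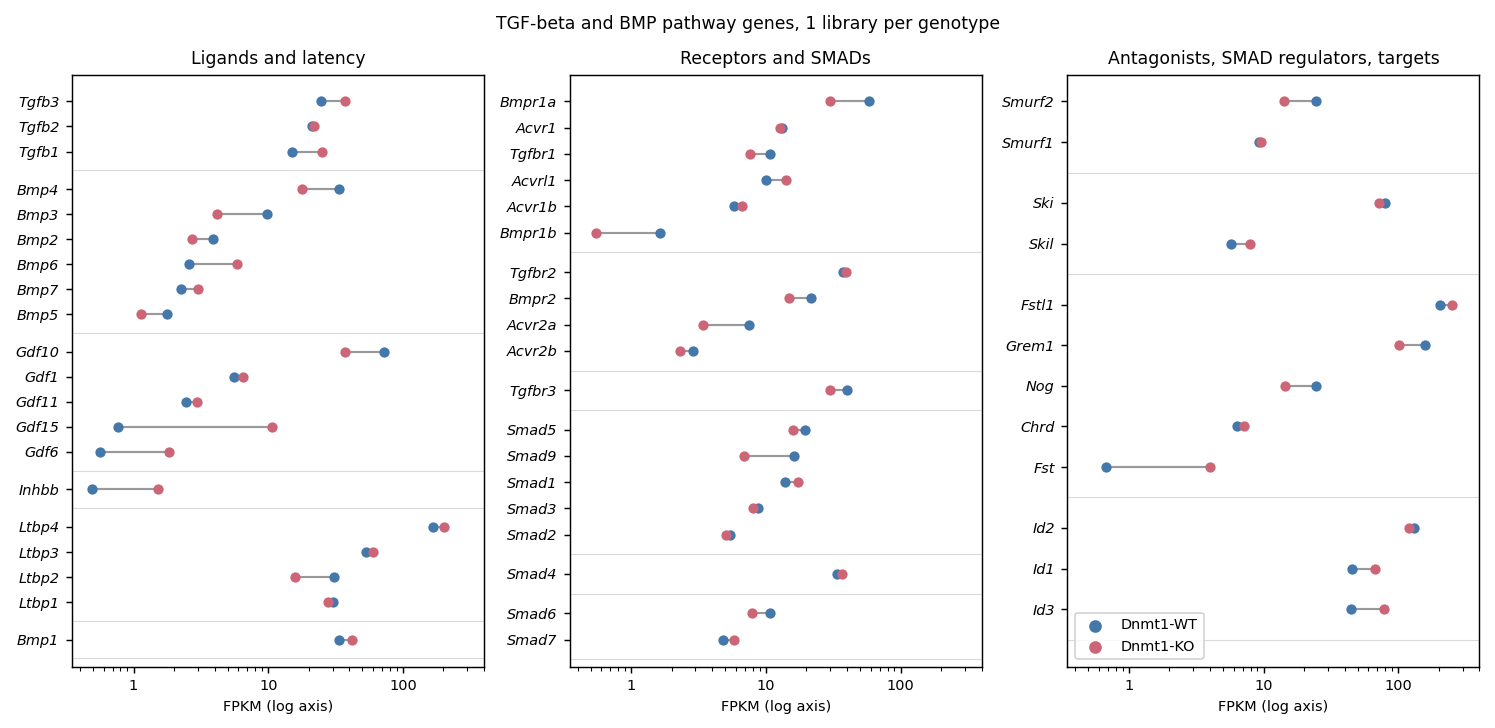
FPKM of pathway genes in the *Dnmt1*-WT (blue) and *Dnmt1*-KO (red) library on a log axis, for the genes named in the text that passed the filter, *Bmp2k* left out, in 3 panels with lines between the groups of genes. Each point is 1 library, so there are no error bars. Long bars to the left mark *Bmp3*, *Bmp4*, *Gdf10*, *Ltbp2*, *Bmpr1a*, *Bmpr1b*, *Acvr2a* and *Smad9*, and long bars to the right *Gdf15*, *Fst*, *Gdf6*, *Inhbb* and *Bmp6*, all of which were under 3 FPKM in *Dnmt1*-WT.

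**Figure D2:**
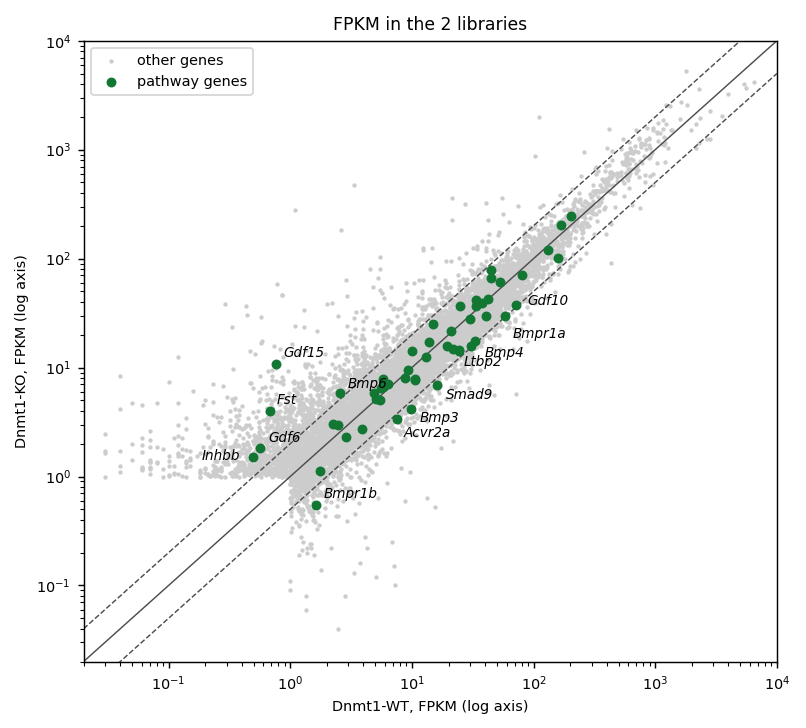
FPKM in the *Dnmt1*-KO library against FPKM in the *Dnmt1*-WT library, both on log axes, for the 13769 genes that passed the filter (grey) and the 53 pathway genes among them (green). The solid line marks equal values and the dashed lines a ratio of 2 and of 0.5, with the names of pathway genes near or beyond them.

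Because DNMT1 acts on CpG sites, the sequences before the starts of the pathway genes were examined for CpG. Methylation itself was not analysed here. Of the 63 genes, 44 matched a RefSeq promoter (GRCm38.p6), with 55 promoters in all. The 250 bases before the start held a median of 21 CpG in these, 15 in the promoters of measured genes and 6 in all promoters. For the pathway genes at least 1.5-fold lower (10 of 12 with a promoter), the CpG number ranged from 1 to 49 with a median of 20, and for those at least 1.5-fold higher (5 of 7 with a promoter) from 1 to 22 with a median of 19.5, so the ranges overlapped. The windows of 2 genes lower (*Smad9*, *Gdf10*) and 2 genes higher (*Tgfb1*, *Gdf15*) are shown because they include CpG-rich and CpG-poor ones and touch no annotated exon, with each CpG in capitals. They lie at chr3:54755332-54755581, chr14:33923337-33923586 and chr7:25686752-25687001 on the plus strand and at chr8:70632457-70632706 on the minus strand, and hold 24, 35, 21 and 1 CpG.
Smad9: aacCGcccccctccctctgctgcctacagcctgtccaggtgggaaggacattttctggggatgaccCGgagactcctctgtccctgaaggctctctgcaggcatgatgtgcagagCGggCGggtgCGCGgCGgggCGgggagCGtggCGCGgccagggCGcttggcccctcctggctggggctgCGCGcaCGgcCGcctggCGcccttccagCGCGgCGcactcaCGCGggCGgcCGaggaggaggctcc
Gdf10: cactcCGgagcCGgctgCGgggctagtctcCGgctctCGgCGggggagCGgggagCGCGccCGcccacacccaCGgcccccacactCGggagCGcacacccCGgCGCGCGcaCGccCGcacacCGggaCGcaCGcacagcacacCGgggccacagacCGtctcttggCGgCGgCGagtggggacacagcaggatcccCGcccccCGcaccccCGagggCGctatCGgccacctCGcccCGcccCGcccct
Tgfb1: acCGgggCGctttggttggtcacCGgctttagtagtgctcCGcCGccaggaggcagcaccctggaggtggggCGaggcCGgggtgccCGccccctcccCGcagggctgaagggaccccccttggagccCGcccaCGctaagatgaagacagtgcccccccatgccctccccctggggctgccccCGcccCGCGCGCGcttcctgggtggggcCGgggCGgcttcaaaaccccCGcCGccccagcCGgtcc
Gdf15: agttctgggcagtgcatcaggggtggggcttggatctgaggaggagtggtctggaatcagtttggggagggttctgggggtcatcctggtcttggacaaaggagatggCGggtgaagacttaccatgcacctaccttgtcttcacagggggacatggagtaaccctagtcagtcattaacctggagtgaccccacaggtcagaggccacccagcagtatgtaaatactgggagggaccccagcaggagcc

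SMAD binding motifs were searched in the same windows on both strands. GGCGCC, a GC-rich SMAD element that reads the same on both strands, was found in 14 of the 55 promoters (25.5%), against 16.5% of those of measured genes and 9.59% of all. It was found before *Smad9*, 51 bases from the start. CAGAC, the SMAD box, was found in 25 (45.5%), against 40.8% and 42.2%, among them *Gdf10*, 98 bases from the start, and *Gdf15*, where it reads GTCTG, 202 bases from the start. Neither GTCTAGAC, the palindromic SMAD element, nor TGANTCA, the AP-1 type site, was found in any (all promoters 0.167% and 6.75%, those of measured genes 0.167% and 4.54%). A match describes the letters, not binding, and no match says only that these letters are not in this window.

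All 3 TGF-β ligands were higher in the *Dnmt1*-KO library in FPKM as deposited, though *Tgfb2* was lower once each library was divided by its FPKM sum (log2 ratio -0.05). *Tgfb1*, the isoform made by many immune and connective tissue cells, went from 14.9 to 25.1 FPKM, 1.68-fold higher. *Tgfb3* went from 24.8 to 37.0 FPKM, 1.49-fold higher, and stayed the most abundant of the 3. *Tgfb2* was nearly equal at 20.98 and 21.7 FPKM. The ligands summed to 60.7 FPKM in *Dnmt1*-WT against 83.8 in *Dnmt1*-KO, and the order of *Tgfb1* and *Tgfb2* switched, with *Tgfb1* at 0.711 times *Tgfb2* for *Dnmt1*-WT and 1.16 times for *Dnmt1*-KO. *Tgfb1* is expressed by macrophages and endothelium, whose markers were higher in the same library as given above. The part of those cells in the values was not tested.

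The proteins that hold and release latent TGF-β were abundant. *Ltbp4*, the most abundant member of the family here, was at 167 and 203 FPKM, and *Ltbp3* at 53.0 and 60.4 FPKM. *Ltbp1* was at 30.1 and 27.8 FPKM. *Ltbp2* stood apart from the others. It was 1.94-fold lower in the *Dnmt1*-KO library, at 15.8 against 30.6 FPKM, and unlike the other LTBP proteins it does not bind latent TGF-β. *Bmp1*, which despite its name is a metalloprotease that processes procollagen and frees ligands from their binding proteins, was at 33.4 and 41.6 FPKM.

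The BMP ligands summed to 53.7 FPKM in *Dnmt1*-WT against 34.8 in *Dnmt1*-KO. *Bmp4*, the main BMP ligand of the gut mesenchyme, made up most of this sum and was 1.88-fold lower, at 17.7 against 33.2 FPKM. *Bmp3*, an unusual member of the family that opposes other BMPs, was 2.34-fold lower, at 4.16 against 9.75 FPKM. *Bmp2* was at 3.87 FPKM in *Dnmt1*-WT against 2.73 in *Dnmt1*-KO. *Bmp5*, the lowest of those that passed the filter, was at 1.77 and 1.13 FPKM. The 2 remaining ligands went the other way. *Bmp6*, a ligand that liver endothelium makes to drive hepcidin, was 2.26-fold higher, at 5.83 against 2.58 FPKM. *Bmp7* was at 2.26 FPKM in *Dnmt1*-WT against 3.03 in *Dnmt1*-KO. The share of *Bmp4* in the summed BMP ligands was thus 61.9% in *Dnmt1*-WT and 50.9% in *Dnmt1*-KO, and that of *Bmp6* 4.80% and 16.8%. *Bmp6* shares 224 exon bases with *Txndc5* on the opposite strand and *Bmp4* 89 with *Gm15217*. Whether the counting used strand is not given in the sources used here, so a part of these values may come from the partner gene.

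Among the growth differentiation factors (GDF), the most abundant was lower and a scarce one higher. *Gdf10*, also called BMP3B and the closest relative of *Bmp3*, was 1.94-fold lower, at 37.3 against 72.2 FPKM. *Gdf15*, a distant member of the family known as a stress-induced hormone, went from 0.77 FPKM in *Dnmt1*-WT to 10.7 in *Dnmt1*-KO, 13.9-fold higher and the largest ratio of all 53 genes (log2 ratio 3.80, or 2.73 with 1 added to each FPKM). The CpG-rich window printed above for *Gdf10* and the CpG-poor one for *Gdf15* belong to these genes, and a second *Gdf15* promoter, not shown, held 6 CpG. *Gdf6*, a BMP-like ligand of joints and eye, was 3.27-fold higher at low level, 1.83 against 0.56 FPKM (log2 ratio 1.71, or 0.86 with 1 added). *Gdf11*, a relative of myostatin, was at 2.47 and 2.98 FPKM. *Gdf1* was listed at 5.53 and 6.55 FPKM, but all of its exon bases (100%) are shared on the same strand with *Cers1*, a ceramide synthase gene, and the 2 cannot be told apart. The GDF ligands summed to 82.9 and 61.0 FPKM, of which *Gdf10* made up 87.1% in *Dnmt1*-WT and 61.2% in *Dnmt1*-KO.

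Activin subunits were near the lower end of the scale. *Inhbb*, the βB subunit, was 3.10-fold higher, at 1.52 against 0.49 FPKM (log2 ratio 1.63, or 0.76 with 1 added), and *Inhba*, the βA subunit, was under 1 FPKM in both libraries. At this level the ratios depend on the pseudocount. The other pathway genes that did not pass the filter numbered 9. *Gdf7* was at 0 in both libraries. *Bmp15*, *Gdf3* and *Acvr1c* were at 0 in *Dnmt1*-WT only and *Bmp8b* in *Dnmt1*-KO only, with none of them reaching 1 FPKM in the other library. *Bmp8a*, *Gdf2*, *Gdf5* and *Gdf9* were above 0 and under 1 FPKM in both.

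The type I receptors, the kinases that phosphorylate the SMADs, summed to 99.8 FPKM in *Dnmt1*-WT against 72.2 in *Dnmt1*-KO, and the difference in *Bmpr1a* alone was about as large. *Bmpr1a*, the BMP receptor ALK3, was 1.97-fold lower, at 29.8 against 58.7 FPKM. *Bmpr1b*, its relative ALK6, was 2.96-fold lower, at 0.55 against 1.63 FPKM (log2 ratio -1.57, or -0.76 with 1 added). *Tgfbr1*, the TGF-β receptor ALK5, was at 10.7 FPKM in *Dnmt1*-WT against 7.67 in *Dnmt1*-KO. ALK3 and ALK6 were thus both below their *Dnmt1*-WT level, and the level of *Bmpr1a* was 5.50 times that of *Tgfbr1* in *Dnmt1*-WT and 3.89 times in *Dnmt1*-KO. *Acvr1*, the BMP and activin receptor ALK2, was nearly equal at 13.1 and 12.6 FPKM, as was *Acvr1b*, the activin receptor ALK4, at 5.83 and 6.66 FPKM. *Acvrl1*, the endothelial receptor ALK1, went from 9.95 to 14.1 FPKM, 1.42-fold higher, beside the 6 endothelial markers whose sum was 2.301-fold higher. The part of vessels in the *Acvrl1* value was not tested. *Bmpr1a* made up 58.8% of the type I receptor sum in *Dnmt1*-WT and 41.3% in *Dnmt1*-KO, and *Acvrl1* 9.97% and 19.6%.

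Among the type II receptors, which bind ligand and activate the type I partner, those of the TGF-β branch and of the BMP and activin branch differed. *Tgfbr2*, the only type II receptor for TGF-β, was at 37.4 and 39.1 FPKM. *Bmpr2* was at 21.7 FPKM in *Dnmt1*-WT against 14.9 in *Dnmt1*-KO, 1.45-fold lower. *Acvr2a*, which binds activins and BMPs, was 2.21-fold lower, at 3.40 against 7.52 FPKM. *Acvr2b*, its close relative, was at 2.87 and 2.32 FPKM. The ratio of *Bmpr2* to *Tgfbr2* within a library was 0.580 in *Dnmt1*-WT and 0.383 in *Dnmt1*-KO. *Tgfbr3*, the co-receptor betaglycan that presents TGF-β2, was at 40.3 and 29.7 FPKM. *Acvr2a* shares 446 exon bases, or 7.84% of its own, with *Orc4* on the opposite strand.

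The receptor-regulated SMADs moved little except for 1 of the BMP branch. *Smad9*, which encodes the BMP SMAD also called SMAD8, was 2.32-fold lower, at 6.91 against 16.04 FPKM. The other 2 BMP SMADs went in opposite directions: *Smad1* was at 13.9 and 17.3 FPKM and *Smad5* at 19.4 and 15.9 FPKM. *Smad9* made up 25.2% of the sum of all 5 in *Dnmt1*-WT and 13.0% in *Dnmt1*-KO, and *Smad1* 21.9% and 32.6%. *Smad2* and *Smad3*, the TGF-β and activin SMADs, were nearly equal between libraries, at 5.45 and 5.04 FPKM and at 8.74 and 8.01 FPKM. *Smad4*, the partner shared by both branches, was at 33.7 and 36.8 FPKM. The summed BMP SMADs were 3.48 times the summed TGF-β SMADs in *Dnmt1*-WT and 3.08 times in *Dnmt1*-KO.

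**Figure D3:**
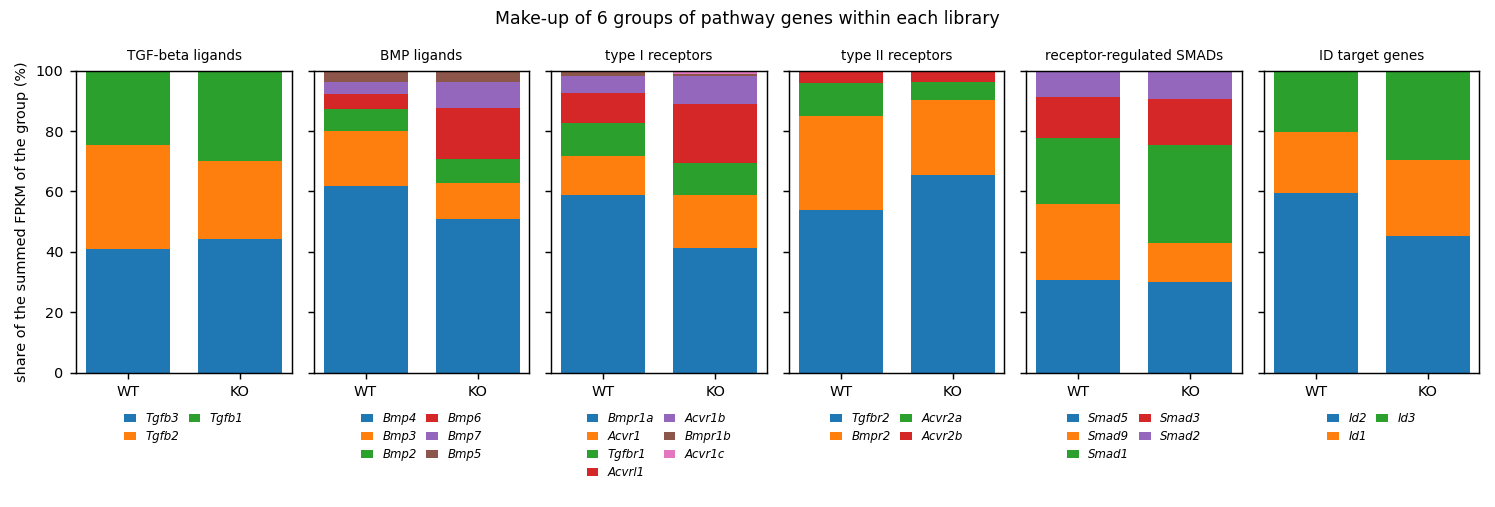
Share of each gene in the summed FPKM of its group (vertical axis, %) in the *Dnmt1*-WT and *Dnmt1*-KO library for 6 groups of pathway genes, with genes under 0.5% in both libraries left out. *Bmpr1a* took a smaller share of the type I receptors in *Dnmt1*-KO (58.8% and 41.3%), *Smad9* of the receptor-regulated SMADs and *Id2* of the ID genes, and *Tgfbr2* a larger share of the type II receptors (53.8% and 65.4%).

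The inhibitors inside the cell were mixed. *Smad6*, the inhibitory SMAD that acts mainly on the BMP branch, was at 10.7 and 7.87 FPKM. *Smad7*, which blocks the TGF-β receptor and is itself induced by TGF-β, was at 4.84 and 5.81 FPKM. Their sum, relative to that of the BMP SMADs, was 0.315 in *Dnmt1*-WT and 0.341 in *Dnmt1*-KO. The ubiquitin ligases that mark SMADs and receptors for destruction parted: *Smurf2* was 1.73-fold lower, at 14.2 against 24.6 FPKM, while *Smurf1* was at 9.21 and 9.54 FPKM. The SMAD corepressors were at 80.1 and 71.4 FPKM for *Ski* and 5.77 and 7.90 FPKM for *Skil*, a gene that TGF-β induces. *Bmp2k*, no member of the pathway, was at 5.03 and 5.15 FPKM.

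The secreted antagonists held the largest sum of the groups, 437.1 FPKM in *Dnmt1*-WT against 418.5 in *Dnmt1*-KO. *Grem1*, a BMP antagonist made by the gut muscle and the mesenchyme under the crypts, was 1.56-fold lower, at 102 against 159 FPKM. With centring on transcript length it was less than 1.5-fold lower, at a log2 ratio of -0.55. *Nog*, noggin, which traps the same BMPs, was 1.70-fold lower, at 14.4 against 24.4 FPKM. Both antagonists were thus lower together with the ligand *Bmp4*, and the level of *Bmp4* relative to *Grem1* was 0.210 in *Dnmt1*-WT and 0.174 in *Dnmt1*-KO. *Chrd*, chordin, was at 6.34 and 7.13 FPKM, and shares 239 exon bases with *Thpo* on the opposite strand. *Fst*, the activin trap follistatin, was 5.87-fold higher at low level, 3.99 against 0.68 FPKM (log2 ratio 2.55, or 1.57 with 1 added). *Fstl1*, a follistatin-like glycoprotein of connective tissue, was the most abundant pathway gene in both libraries, at 205 and 249 FPKM.

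The ID genes encode dominant-negative helix-loop-helix factors and are direct BMP targets. Of the 3, 2 were higher and 1 was slightly lower. *Id3* was 1.75-fold higher, at 77.9 against 44.5 FPKM, and *Id1* 1.49-fold higher, at 67.0 against 44.9 FPKM. With centring on transcript length both were under 1.5-fold, at log2 ratios of 0.52 and 0.29. *Id2*, the most abundant of the 3, was at 131 and 120.0 FPKM. The ratio of *Id3* to *Id2* was 0.340 in *Dnmt1*-WT and 0.650 in *Dnmt1*-KO. *Id1* and *Id3* are also expressed in endothelium, whose 6 markers were higher (46.3 and 106.5 FPKM in sum), and the part of vessels in these values was not tested.

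Other genes of the pathway were followed in 7 lists, which were drawn up with earlier results of these data known. Among the TGF-β target genes, 12 of the 19 that passed the filter were at least 1.5-fold higher (background 16.4%) and 8 at least doubled (background 9.14%), none was 1.5-fold lower, and the median log2 ratio was 0.92. Their most abundant members are collagen genes: *Col3a1* was at 1148 and 1552 FPKM and *Col1a1* at 700.4 and 1518 FPKM. The matricellular genes *Ctgf* (34.2 and 129.6 FPKM) and *Cyr61* (19.0 and 94.4 FPKM) were higher, and so were the collagen cross-linking enzyme *Lox* (7.63 and 34.6 FPKM) and the metalloproteinase inhibitor *Timp1* (5.93 and 16.9 FPKM). *Cdkn1a*, the cell cycle inhibitor p21, which p53 also induces, was at 14.7 and 124.9 FPKM. *Cdkn2b*, p15, another inhibitor of the cell cycle, was low in both libraries, at 0.23 and 2.03 FPKM, and passed the filter only through the *Dnmt1*-KO library. *Col1a1* and *Col1a2* also stand among the fibroblast markers, so the 2 lists are not independent, and of the other fibroblast markers *Dcn* and *Lum* were higher (ratios 1.43 and 1.30), *Dpt* nearly equal (0.981) and *Pdgfra* lower (0.591). The SMC markers, of which all 7 were lower, are not in this list, though TGF-β is also known for driving SMC differentiation. Many of the listed target genes respond to other signals as well. The part of fibroblasts or of other signals in the counts was not tested.

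The BMP target genes other than *Id1*, *Id2* and *Id3* were mostly low: 6 of the 11 listed passed the filter, with a median log2 ratio of 0.45. *Id4* was at 18.6 and 33.5 FPKM and *Klf4*, a transcription factor, at 13.4 and 18.8 FPKM. *Bambi*, a decoy receptor, was 1.74-fold higher, at 2.82 against 1.62 FPKM, and *Hey1*, also a Notch target, was 1.502-fold lower, at 6.56 against 9.85 FPKM. Targets of the BMP branch were thus higher in 5 of 6, with 2 past 1.5-fold upwards (background 16.4%) and 1 downwards (background 11.3%), in a list too short to read against these shares.

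The co-receptors split evenly, with 3 of 6 at least 1.5-fold higher and 3 at least 1.5-fold lower (background 16.4% and 11.3%). Those lower included both repulsive guidance molecules, which are membrane-anchored BMP co-receptors. *Rgma* was 2.45-fold lower, at 35.8 against 87.7 FPKM, and *Rgmb* 1.58-fold lower, at 80.5 against 127.3 FPKM. *Cd109*, a TGF-β co-receptor that dampens the signal, was at 6.56 and 3.93 FPKM. Those higher were *Eng*, the endothelial co-receptor endoglin (26.1 and 45.1 FPKM), *Vasn*, which binds TGF-β (8.43 and 15.5 FPKM), and *Bambi*. As for *Acvrl1*, the part of vessels in *Eng* was not tested.

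The list of genes that activate latent TGF-β also included genes that hold it, such as *Lrrc32* and *Nrros*. Of its 12 genes that passed the filter, 5 were at least 1.5-fold higher (background 16.4%) and none 1.5-fold lower (background 11.3%). The median log2 ratio was 0.52. In all, 8 were higher and 4 lower, and their sums were nearly equal at 729.3 and 726.0 FPKM. The integrin subunit *Itgb1* (377.4 and 283.4 FPKM) and the membrane protease *Mmp14* (77.3 and 110.7 FPKM) were the most abundant. *Lrrc32*, which encodes GARP and holds latent TGF-β on the cell surface, was 3.85-fold higher, at 13.0 against 3.37 FPKM. *Nrros*, its counterpart on macrophages, was 2.42-fold higher, at 3.83 against 1.58 FPKM, beside leukocyte and macrophage markers that were 3.23-fold higher in sum. The part of macrophages in it was not tested.

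Of 10 further secreted antagonists, 4 were at least doubled (background 9.14%) and 1 was at least 1.5-fold lower (background 11.3%). The proteoglycans *Dcn* (427.7 and 613.5 FPKM) and *Bgn* (112.2 and 297.3 FPKM), which bind TGF-β in the matrix, were the most abundant, and *Bgn* was 2.65-fold higher. The others doubled were *Chrdl2* (0.45 and 3.42 FPKM, past the filter only through the *Dnmt1*-KO library), *Bmper* (2.60 and 6.15 FPKM) and *Fstl3* (3.42 and 6.99 FPKM), whereas *Chrdl1* was at 15.1 and 8.74 FPKM. These secreted traps for BMPs and activins thus did not move as 1 group. Of 19 intracellular modulators 14 were lower, beside 50.8% of all genes, with a median log2 ratio of -0.19. Only 1 gene was past 1.5-fold in each direction (background 16.4% higher and 11.3% lower). The most abundant, *Fkbp1a* (197.6 and 201.1 FPKM) and *Sptbn1* (137.0 and 130.4 FPKM), were nearly equal. *Wwp1*, a ubiquitin ligase related to the SMURF proteins, was 2.68-fold lower, at 10.1 against 27.0 FPKM, and *Pmepa1*, a TGF-β-induced brake on SMAD2 and SMAD3, 1.99-fold higher, at 41.0 against 20.6 FPKM. Of the other ligands *Gdnf*, a distant relative of TGF-β needed by enteric neurons, was 3.04-fold lower, at 2.59 against 7.88 FPKM, while the inhibin subunit *Inha* was at 7.02 and 7.34 FPKM.

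**Figure D4:**
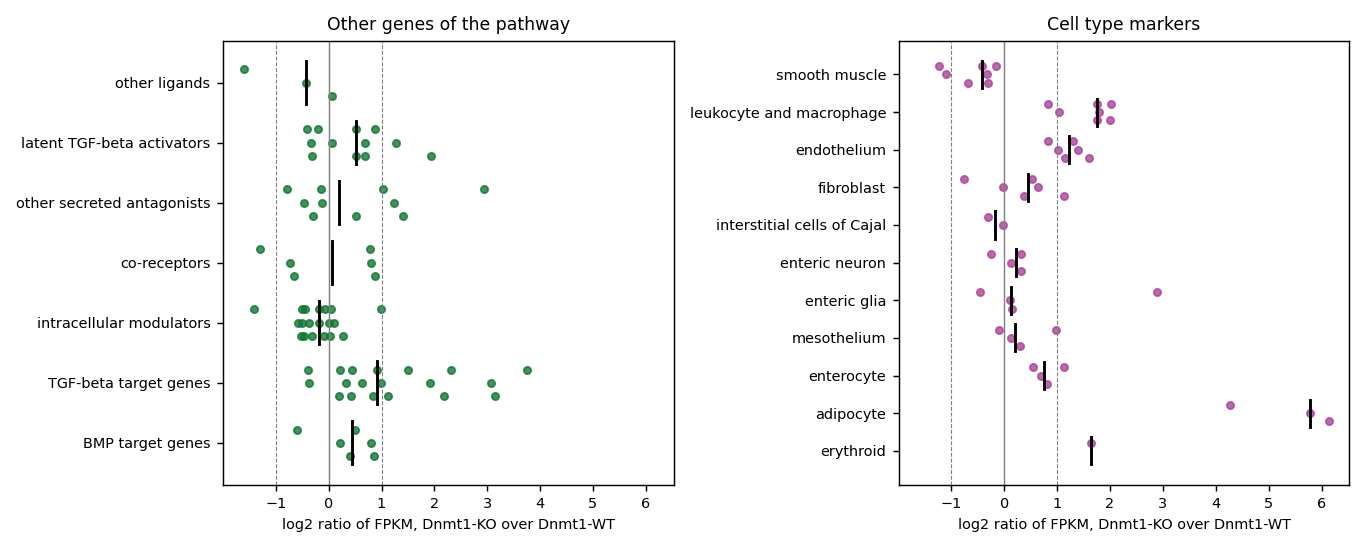
Log2 ratio of FPKM, *Dnmt1*-KO over *Dnmt1*-WT, for the other genes of the pathway (left) and the cell type markers (right) that passed the filter, 1 point per gene and a black bar at the median of each list. The solid line marks equal values and the dashed lines a doubling and a halving. The median of the TGF-β target genes is at 0.92, and those of the endothelial and of the leukocyte and macrophage markers are at 1.22 and 1.76.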

How the data were processed

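RNA of the jejunal tunica muscularis was sequenced (TruSeq RNA libraries, 1 per genotype). Per the labels, reads were mapped to mm10, and the submitters' processing notes name TopHat 1.4.1 and Cufflinks 2.0.2. The authors deposited FPKM per gene symbol, how many transcript variants each library showed, and their own ratio of *Dnmt1*-KO to *Dnmt1*-WT, which was not used. FPKM were used as deposited, without pseudocount or rescaling. The values are rounded estimates, the lowest above 0 being 0.03, so fragments per gene could not be recovered exactly. The study states the mapped reads of each library, which were not used here, and no interval was computed, since counting error leaves out the spread between mice.

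Ratios were taken for genes above 0 in both libraries and at 1 FPKM or more in at least 1, and were counted at 2, 0.5, 1.5 and 1/1.5. Counting was tested on simulated data, and no value from that test is given here. With 1 library per genotype no test was made. The members and lists were chosen with earlier results of these data known. Every pathway gene that passed is named, except where a gene is not reported here. Of the other pathway lists, the 2 most abundant genes are named and those past 2-fold at 10 FPKM or more. Marker lists are given by counts and sums, with at most 3 of their most abundant genes. *Cdkn2b*, *Bambi*, *Hey1*, *Cd109*, *Eng*, *Vasn*, *Nrros*, *Chrdl2*, *Bmper*, *Fstl3*, *Chrdl1*, *Pmepa1*, *Gfap*, *Dpt*, *Lum*, *Pdgfra*, *Myocd*, *Lep*, *Hbb-bs*, *Hba-a2* and *Col1a2* are outside these rules, picked once their values had been seen.

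Transcript lengths and overlaps came from GENCODE M21 and promoters from RefSeq GRCm38.p6. Alternatives covered filters, scaling, pseudocount and transcript length. Python 3.11.15, numpy 2.4.6, pandas 2.3.3 and matplotlib 3.10.9 were used.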

Additional observations from a re-analysis of the deposited data

How the results depend on the processing

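Of 265 log2 ratios (53 genes under 5 other scalings, pseudocounts and length corrections), 260 moved by less than 1.5-fold and 5 by more, all with 1 added to each FPKM: *Gdf15* (log2 ratio 2.73), *Fst* (1.57), *Gdf6* (0.86), *Inhbb* (0.76) and *Bmpr1b* (-0.76). None past 1.5-fold changed direction. Genes with small differences that changed sign included *Tgfb2*, *Tgfbr2*, *Smurf1* and *Bmp2k* under FPKM sum scaling, and *Ski*, *Ltbp1*, *Gdf1* and *Smad2* with centring on transcript length. The number of genes at least doubled was 2 both with a filter of 5 FPKM and with 1 added, and that of genes at most halved was 8 under FPKM sum scaling and 2 with 1 added. With the filter of 5 FPKM, 4 of 44 genes were at least 1.5-fold higher, beside 12.2% of all genes. *Id3* (0.52) and *Grem1* (-0.55) fell short of 1.5-fold with centring on transcript length, which also brought *Skil* (0.63) past it and *Acvr2a* (-0.97) short of a halving, and *Bmp5* (-0.38) with 1 added. FPKM sum scaling moved the median log2 ratio of all genes to -0.11 and that of the pathway genes to -0.07, and 14.0% of all genes were then at least 1.5-fold higher and 15.5% lower, against 7 and 14 pathway genes. Median centring gave 9 pathway genes at least 1.5-fold higher, beside 17.2% of all genes. Beyond how each alternative is built, the cause was not tested. No paired analysis was possible because each genotype has 1 library, and for the same reason no library could be left out. Ratios of genes near 1 FPKM moved the most with the pseudocount.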

Other observations

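The number of transcript variants found per gene, deposited beside the FPKM, was the same in both libraries for most pathway genes. It is not independent of the FPKM, since it was 0 for pathway genes at 0 FPKM. Of 53, 5 had more variants in the *Dnmt1*-KO library and 3 fewer, together 15.1%, against 27.6% of all 13769 genes that passed the filter. The median level in *Dnmt1*-WT was 13.9 FPKM for these 53 and 9.14 FPKM for all genes. The part of level or of sequencing depth in these shares was not tested. *Bmp4* had 2 variants in *Dnmt1*-WT and 3 in *Dnmt1*-KO, *Smad4* 3 and 4, *Acvr2b* 2 and 3, *Fst* 1 and 2, and *Gdf1* 1 and 3. *Acvr2a* had 2 and 1, *Bmp5* 2 and 1, and *Smad2* 3 and 2. How a variant was counted as found is not given in the sources used here.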
